A study of Mus musculus with 32 samples.

Results

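Hindlimb muscle of C57BL/6 mice was compared between 2 ages in the late dark phase, at ZT 18 and ZT 21 (zeitgeber time, counted in hours from lights on). The young mice were 8 weeks old and the aged mice 80 weeks. At each of these times the labels give 2 arrays per age, so that 4 arrays of 80 weeks stood against 4 of 8 weeks. The 8 arrays were picked by their labelled age and ZT, out of 32 arrays that cover the day at 8 weeks and 80 weeks. All mice had lived in 12 h of light and 12 h of darkness with free access to food and water. Each array held RNA pooled from 3 mice, so the 8 arrays stand for 24 mice of 96, and the spread between arrays is that between pools. No genotype or treatment other than age and time is labelled. Total RNA of whole muscle was read on GeneChip Mouse Gene 2.0 ST arrays, and the levels are log2 values on which 1 unit is a factor of 2.

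Mice are nocturnal, and late dark is the closing stretch of their active and feeding phase. The circadian clock of muscle runs on the activators encoded by Arntl and Clock, which switch on their own repressors, the Per and Cry genes, and output regulators such as Dbp. Ageing muscle is known for the loss of fibres and of innervation, for a shift in fibre types and for infiltration by fat and immune cells. A whole muscle sample holds fibres, vessels, nerve, tendon, fat and blood-borne cells, and in such bulk RNA fewer cells of a type and less RNA per cell cannot be told apart.

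The muscle labels fitted the markers. The mean level of 12 muscle identity genes, among them Acta1, Ckm and the fast myosins, lay between 12.8 and 13.0 on all 8 arrays, and 0 of the 12 passed the test of age. One young array stood apart: the mean of 17 hepatocyte genes was 9.58 in young ZT 18 repeat 2, and between 6.39 and 7.16 on the other 7 arrays, with Alb (albumin) at 12.49 and Mup3 at 11.55. Of the 32 arrays of the study 6 carried such liver transcripts, and this is the one among the 8. The others were young ZT 0 repeat 1, young ZT 3 repeat 1, both young ZT 6 repeats and aged ZT 6 repeat 1. Most arrays with liver transcripts were thus young. The hepatocyte list had a median age difference of -1.01 in log2 with 0 of 17 genes past the threshold, and these genes are not read further. Repeats of a group differed by a root mean square of 0.263 to 0.344 over all genes, and other pairs of the 8 arrays by 0.265 to 0.385.

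Of 23279 genes tested, 642 (2.76%) passed the test of age in late dark at an adjusted p under 0.05 (limma with ZT as a covariate, Benjamini-Hochberg over all genes). At 80 weeks 393 genes (1.69%) were higher and 249 (1.07%) were lower. The median difference of the 393 was 0.53 and that of the 249 was -0.51, against -0.0054 over all genes, and 159 (0.683% of all genes) of the higher and 79 (0.339%) of the lower genes differed at least 1.5-fold, with 29 (0.125%) and 11 (0.0473%) at least 2-fold. In 385 of the 393 and 243 of the 249 all 4 arrays of one age lay beyond the 4 of the other, as they did in 3035 (13%) of all genes. The size of the count rested on having all 8 arrays. It was 215 without young ZT 18 repeat 1, 282 without young ZT 18 repeat 2 (the array with liver transcripts), 134 without young ZT 21 repeat 1 and 97 without young ZT 21 repeat 2. It was 80 without aged ZT 18 repeat 1, 188 without aged ZT 18 repeat 2, 152 without aged ZT 21 repeat 1 and 94 without aged ZT 21 repeat 2. All 642 differences kept their direction in each of these fits. For the 385 and 243 genes without overlap this was fixed in advance, since leaving out 1 array cannot turn their sign.

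The largest rises were those of antibody genes. The 12 largest rises and falls were chosen among called genes whose ages do not overlap, so this gap follows from the choice. Igkc encodes the constant part of the kappa light chain, and Ighg2c that of an immunoglobulin G heavy chain. Igkc stood at 7.41 and 5.98 in young ZT 18, 6.28 and 5.66 in young ZT 21, 9.11 and 9.08 in aged ZT 18, and 9.86 and 10.07 in aged ZT 21. Each aged array lay above each young one, by a mean of 3.20 ± 0.37 (SE, 4 arrays per age; limma adjusted p = 0.00902). Ighg2c stood at 5.62, 5.88, 6.05 and 5.30 in the young arrays (here and below in the order ZT 18 repeat 1, ZT 18 repeat 2, ZT 21 repeat 1, ZT 21 repeat 2) and at 7.89, 8.08, 9.00 and 7.76 in the aged ones. It rose by 2.47 ± 0.26 (adjusted p = 0.00687), with no overlap of the ages. The kappa variable gene Igkv14-126 stood at 2.99, 2.70, 3.39 and 2.49 in young, close to the lowest level of the arrays at 1.70, and at 7.98, 5.26, 7.19 and 7.59 in aged. Its difference of 4.11 ± 0.49 (adjusted p = 0.00991) thus rests on young values near the floor. The heavy chain joining segment Ighj4 completed the antibody genes among the 12 largest rises, with 1.55 ± 0.21 (adjusted p = 0.012). All 4 kept their call without any single array. Immunoglobulin genes are a family with like sequences, so that probes may be shared among them.

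Of 9 measured markers of B and plasma cells 4 rose and 0 fell, against 1.69% and 1.07% of all genes: Igkc, Ighg2c, Ighm and Jchain. Jchain, whose product joins secreted antibody units, stood at 3.43 to 3.75 in young and 4.36 to 4.93 in aged and rose by 1.01 ± 0.12 (adjusted p = 0.0102). Ighm, the heavy chain of immunoglobulin M, rose by 0.80 ± 0.14 (adjusted p = 0.0229), with all aged arrays above the young ones, but it did not pass without young ZT 21 repeat 1 or 2 or without any 1 of the 4 aged arrays (adjusted p up to 0.0768). The B cell surface genes Cd79a (5.26 in young, 5.45 in aged), Cd79b (5.72 and 5.87) and Ms4a1 (4.23 and 4.46) did not pass the test. The mean of the 9 markers ran from 5.45 to 6.12 in young and from 6.32 to 6.84 in aged, and their median difference was 0.24. In all, 14 immunoglobulin genes were among the 393 higher genes and 0 among the 249 lower ones, of 214 on the array.

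**Figure D1:**
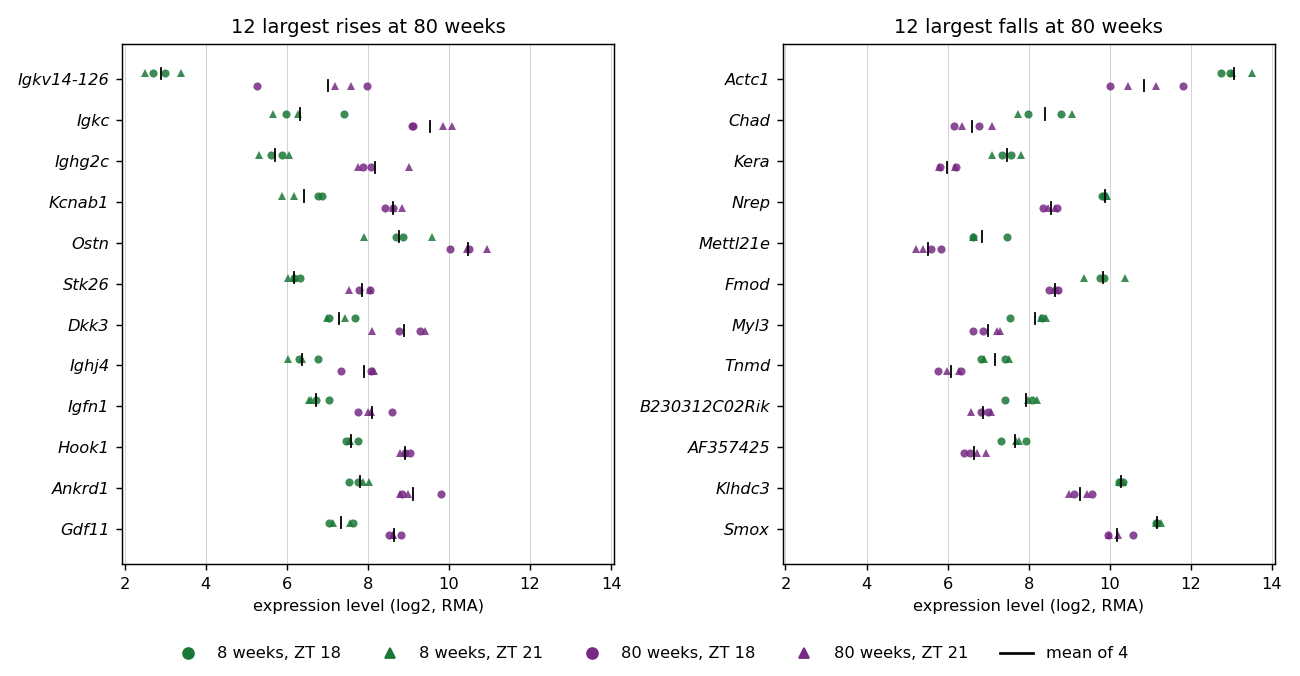
Level of the 12 largest rises (left) and the 12 largest falls (right) at 80 weeks on each of the 8 arrays, in log2. Green marks 8 weeks and purple 80 weeks, circles ZT 18 and triangles ZT 21, and the black bars are means of 4 arrays. The 24 genes were chosen among called genes whose 2 ages do not overlap.

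The other leading rises included Kcnab1, Stk26, Hook1, Gdf11 and Dkk3. Kcnab1 encodes a beta subunit of voltage-gated potassium channels. Its level was 6.86, 6.77, 6.18 and 5.88 in young and 8.62, 8.42, 8.63 and 8.84 in aged, a rise of 2.20 ± 0.19 (adjusted p = 0.00404). The aged arrays were alike at both times, and the young arrays were lower at ZT 21 than at ZT 18. Stk26 encodes a kinase of the germinal centre kinase group. It stood between 6.02 and 6.33 in young and between 7.54 and 8.06 in aged, and rose by 1.68 ± 0.12 (adjusted p = 0.00143). Hook1, which encodes an adaptor of microtubule transport, stood at 7.47 to 7.76 in young and 8.78 to 9.04 in aged and rose by 1.34 ± 0.09 (adjusted p = 0.00143). For both genes the gap between the ages was wider than the whole range within either. Gdf11, a secreted factor of the TGF-beta family and close relative of myostatin, was measured at 7.05, 7.63, 7.55 and 7.13 in young and at 8.53, 8.80, 8.62 and 8.62 in aged. It rose by 1.30 ± 0.14 (adjusted p = 0.00847), a factor of 2.47. Dkk3, a secreted protein of the Dickkopf family, stood at 6.98 to 7.68 in young and 8.09 to 9.41 in aged and rose by 1.60 ± 0.27 (adjusted p = 0.0224).

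A further group of rises belongs to the stretch and ankyrin repeat list. Like the other lists it was chosen with earlier results of these data known, so its count is no test of the list. Of its 15 genes 4 rose and 0 fell, against 1.69% and 1.07% of all genes. Ankrd1, a stress-induced protein of the titin spring region, stood at 7.53, 7.75, 7.88 and 8.02 in young and at 8.84, 9.81, 8.98 and 8.79 in aged. It rose by 1.31 ± 0.22 (adjusted p = 0.0213), the highest value being that of aged ZT 18 repeat 2. Igfn1, an immunoglobulin-like and fibronectin protein of the sarcomere, rose by 1.38 ± 0.17 (adjusted p = 0.0102). Ostn encodes osteocrin, a peptide secreted by muscle and bone. It stood at 8.69, 8.86, 7.91 and 9.58 in young and at 10.02, 10.50, 10.44 and 10.95 in aged and rose by 1.72 ± 0.31 (adjusted p = 0.0269), with a young range over 1 unit wide. Mss51, a muscle gene tied to mitochondrial respiration, rose by 1.29 ± 0.27 (adjusted p = 0.0386). The mean of the 15 genes ran from 10.1 to 10.2 in young and from 10.3 to 10.6 in aged, and their median difference was 0.11. Ankrd2 and Csrp3, sensors of stretch in slow fibres, lay on the other side at -0.35 and -0.33 (adjusted p = 0.246 and 0.403). Igfn1 kept its call without any single array. Ankrd1 lost it without young ZT 18 repeat 1, either young ZT 21 repeat, aged ZT 18 repeat 1 or either aged ZT 21 repeat (adjusted p up to 0.0585). Ostn lost it without either young ZT 18 repeat or any aged array (adjusted p up to 0.0783), and with the trended and robust variance prior (0.0658), Mss51 without any array other than young ZT 21 repeat 1 (up to 0.117) and with that prior (0.0774), and Dkk3 without young ZT 18 repeat 1, either young ZT 21 repeat, either aged ZT 18 repeat or aged ZT 21 repeat 2 (up to 0.0768).

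Actc1, the actin of heart and of developing skeletal muscle, showed the largest fall. Its level was 12.97, 12.74, 13.01 and 13.52 in young and 10.02, 11.80, 11.13 and 10.45 in aged. It fell by 2.21 ± 0.34 (adjusted p = 0.0177), so that young muscle held 4.63 times the level of aged muscle. The young arrays were close together, and the aged arrays spread over almost 2 units while staying below all young ones. Nrep, a small protein known from neuronal regeneration, stood between 9.80 and 9.94 in young and between 8.35 and 8.71 in aged and fell by 1.34 ± 0.10 (adjusted p = 0.00143). Both are on a list of 15 developmental and cardiac sarcomere genes with a median difference of 0.09, of which no other member passed. Over all genes 1.07% fell. The embryonic and perinatal myosins Myh3 and Myh8 lay at 0.55 and 0.68 (adjusted p = 0.225 and 0.204), opposite in sign to Actc1. Without either young ZT 21 repeat, aged ZT 18 repeat 1 or either aged ZT 21 repeat Actc1 did not pass (adjusted p up to 0.0626), and its difference stayed between -2.62 and -1.91.

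The promoters of Actc1 and Ankrd1, a fall and a rise, are shown because both genes are textbook targets of factors that respond to the state of the sarcomere. The sequences are the 250 bases before the RefSeq start (GRCm38.p6, minus strand of both chromosomes, Actc1 at chr2:114052876-114053125 and Ankrd1 at chr19:36119845-36120094). Capitals mark, in Actc1, a CArG box, the site class bound by serum response factor, and in Ankrd1 the letters CATTCC on the opposite strand (GGAATG as printed), the core read by TEAD factors.
Actc1: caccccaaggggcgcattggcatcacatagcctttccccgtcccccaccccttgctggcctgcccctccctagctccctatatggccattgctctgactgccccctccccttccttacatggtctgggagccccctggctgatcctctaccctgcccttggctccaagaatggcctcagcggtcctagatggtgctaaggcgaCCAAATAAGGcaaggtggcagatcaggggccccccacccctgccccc
Ankrd1: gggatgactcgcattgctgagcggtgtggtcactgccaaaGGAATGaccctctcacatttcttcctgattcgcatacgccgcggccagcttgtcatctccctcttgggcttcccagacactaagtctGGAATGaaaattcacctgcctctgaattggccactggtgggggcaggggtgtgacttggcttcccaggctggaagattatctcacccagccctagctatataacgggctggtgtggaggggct
The CArG box of Actc1 starts 47 bases before the gene's start, and 378 of 27025 promoter windows of the same length (1.4%) hold a CArG box on either strand. The matches in Ankrd1 start 210 and 123 bases before its start, and 3414 windows (12.6%) hold CATTCC on either strand. These matches describe letters only, and no binding was measured.

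A set of tendon genes fell. Of 11 measured tendon, cartilage and bone genes 4 fell and 0 rose, against 1.07% and 1.69% of all genes: Chad, Fmod, Tnmd and Thbs4. Chad, chondroadherin, a leucine-rich matrix protein of cartilage and tendon, stood at 8.81, 7.99, 9.08 and 7.73 in young and at 6.76, 6.17, 7.10 and 6.36 in aged. It fell by 1.80 ± 0.31 (adjusted p = 0.0228) without overlap, and within each age repeat 1 was higher than repeat 2. Fmod, fibromodulin, which binds collagen fibrils, stood at 9.85, 9.75, 10.38 and 9.37 in young and 8.71, 8.51, 8.70 and 8.63 in aged and fell by 1.20 ± 0.18 (adjusted p = 0.0173). Tnmd, tenomodulin, a membrane protein of tendon cells, stood at 7.42, 6.81, 7.52 and 6.89 in young and 5.77, 6.33, 5.98 and 6.28 in aged. It fell by 1.07 ± 0.19 (adjusted p = 0.0244). Thbs4, a thrombospondin of tendon and muscle junctions, fell by 0.92 ± 0.13 (adjusted p = 0.0129). Kera, keratocan, a proteoglycan of cornea and tendon outside the list, stood at 7.09 to 7.82 in young and 5.78 to 6.20 in aged and fell by 1.47 ± 0.17 (adjusted p = 0.00902).

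The mean of the 11 tendon, cartilage and bone genes ran from 6.71 to 7.35 in young and from 6.32 to 6.46 in aged, with a median difference of -0.60, and 5 of the 11 had all aged arrays below all young ones, as 6.19% of all genes did. The tendon regulators Scx and Mkx lay at 0.02 and -0.04 (adjusted p = 0.96 and 0.922), and Bglap, a bone gene, at 0.21 (adjusted p = 0.396). The amount of tendon in each dissected pool was not measured apart from these genes, and its part in the result was not tested. Kera kept its call without any single array, and Thbs4 lost it only without aged ZT 18 repeat 1 (adjusted p = 0.0503). Chad lost it without young ZT 18 repeat 1, young ZT 21 repeat 1, either aged ZT 18 repeat or aged ZT 21 repeat 2 (up to 0.07), Fmod without any 1 of the 4 aged arrays (up to 0.0598), and Tnmd without young ZT 18 repeat 1, either young ZT 21 repeat, aged ZT 18 repeat 1 or either aged ZT 21 repeat (up to 0.079).

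Of 23 collagen and matrix genes 2 fell, Sparc and Col6a2, and 0 rose, against 1.07% and 1.69% of all genes. Only 2 of the 23 lay above 0, where 48.6% of all genes did, and the median was -0.44. Sparc, a collagen-binding matrix protein, stood at 11.05, 10.75, 10.90 and 11.12 in young and at 10.04, 9.95, 10.68 and 10.03 in aged and fell by 0.78 ± 0.15 (adjusted p = 0.0299). Among the aged arrays ZT 21 repeat 1 stood apart, nearest to the young ones. The same array was high in the fibrillar collagens: Col1a1 stood at 7.83, 8.78, 10.52 and 8.28 in aged against 10.34, 10.03, 10.50 and 10.68 in young, and its difference of -1.54 ± 0.42 did not pass (adjusted p = 0.0899). Col1a2 lay at -1.23 ± 0.28 (adjusted p = 0.0501). Without aged ZT 21 repeat 1 both Col1a1 and Col1a2 passed (adjusted p = 0.0213 and 0.0238). Col6a2, of the collagen around fibres, fell by 0.55 ± 0.10 (adjusted p = 0.0272). Both called genes lost their call without most single arrays. Sparc kept it only without aged ZT 21 repeat 1 (adjusted p up to 0.0947) and Col6a2 only without aged ZT 18 repeat 2 (up to 0.089).

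Slow fibre genes had a median difference of -0.68 over 13 measured genes, against -0.0054 over all genes. Of the 13, 2 fell and 1 rose, against 1.07% and 1.69% of all genes. Myl3, the slow and ventricular essential light chain, and Atp2a2, the calcium pump of slow fibres, fell, and Sln rose. Myl3 stood at 8.34, 7.53, 8.44 and 8.32 in young and at 6.62, 6.86, 7.30 and 7.23 in aged. It fell by 1.15 ± 0.16 (adjusted p = 0.0129), and the array with liver transcripts, young ZT 18 repeat 2, was the young array nearest to the aged ones. Atp2a2 fell by 0.74 ± 0.12 (adjusted p = 0.0207). Sln, sarcolipin, an inhibitor of calcium pumps, stood at 5.67 to 6.60 in young and 6.74 to 7.64 in aged and rose by 1.12 ± 0.25 (adjusted p = 0.0472). Myh7, the slow myosin heavy chain, had a value of -1.11 ± 0.27 and Tnnc1, slow troponin C, of -1.06 ± 0.25 (adjusted p = 0.0626 and 0.0615), short of the threshold. Of 14 fast fibre genes 0 passed, and their median was -0.08. Myl3 lost its call without aged ZT 18 repeat 1 (adjusted p = 0.0534), Atp2a2 without either young ZT 21 repeat or any aged array (up to 0.0707), and Sln without any 1 of the 8 arrays (up to 0.122) and with the trended and robust prior (0.0568). Tnnc1 passed without young ZT 18 repeat 2, the array with liver transcripts (0.0237).

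The balance of slow over fast fibre genes was lower on average in the aged arrays. The mean of the slow genes minus that of the fast genes was -4.10, -4.83, -4.34 and -4.23 in the young arrays and -5.11, -4.83, -4.75 and -4.41 in the aged ones. The ages overlapped only through young ZT 18 repeat 2, the array with liver transcripts. All other young arrays lay above all aged ones. In the other 24 arrays the measure ran from -4.41 (ZT 0 repeat 1) to -3.23 (ZT 6 repeat 1, with liver transcripts) at 8 weeks. At 80 weeks it ran there from -5.42 (ZT 12 repeat 1) to -3.21 (ZT 9 repeat 1), so that pools differed widely within an age. With slow minus fast as a covariate, 12 genes passed the test of age (9 higher and 3 lower) in place of 642, and all 642 kept their direction. The adipocyte mean ran from 7.72 to 9.69 in young and from 8.90 to 9.55 in aged, with 0 of 8 genes past the threshold and Adipoq, the adiponectin gene, at 8.40, 6.21, 7.25 and 9.01 in young and 8.17 to 9.17 in aged. With the adipocyte mean as a covariate 124 genes passed, and with the hepatocyte mean 121. Each covariate also takes a degree of freedom from 8 arrays, and the part of fibre mix, fat or liver RNA in the age differences was not tested.

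**Figure D2:**
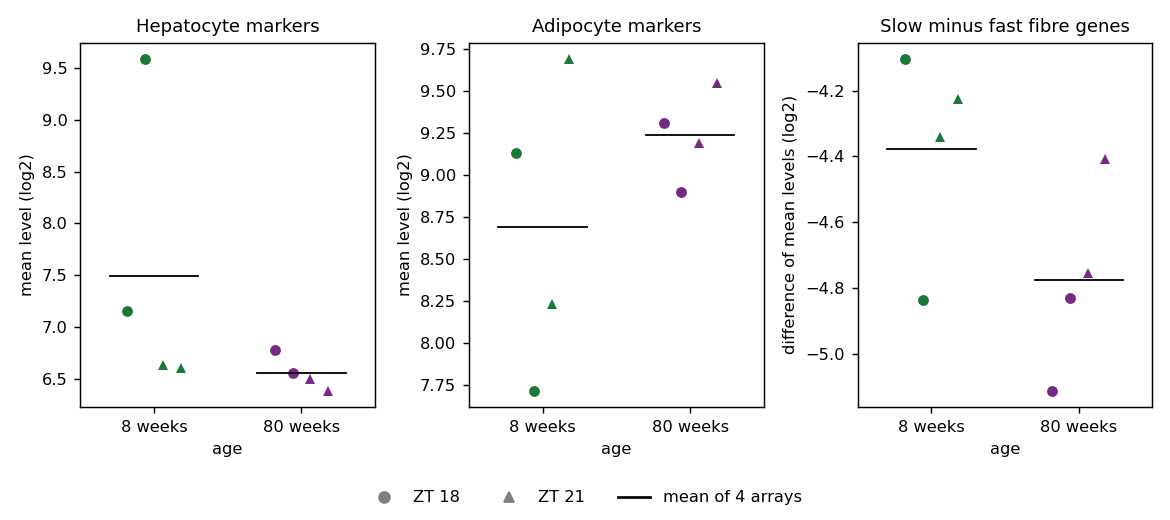
Mean level in log2 of the hepatocyte markers (left) and adipocyte markers (middle), and the mean of slow minus that of fast fibre genes (right), on each of the 8 arrays by age, with black bars at the mean of 4 arrays. One young ZT 18 array is at 9.58 for hepatocyte markers; the ages overlap in the other measures.

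Genes of mitochondrial respiration mostly lay below 0, by small amounts. Of 26 measured genes of oxidative phosphorylation and the citrate cycle 3 fell and 0 rose, against 1.07% and 1.69% of all genes. In the list 24 lay below 0, while 48.6% of all genes lay above it. Of the 26, 11 had all aged arrays below all young ones, where 6.19% of all genes did. The median of the 26 was -0.26. Cox5a, a subunit of cytochrome oxidase, stood at 10.70, 10.75, 10.86 and 10.91 in young and at 10.24, 10.05, 10.18 and 10.02 in aged. It fell by 0.68 ± 0.09 (adjusted p = 0.0116) and kept its call without any single array. Cox4i1, another subunit of that enzyme, stood at 10.20 to 10.34 in young and 9.46 to 9.83 in aged and fell by 0.65 ± 0.10 (adjusted p = 0.0172). Uqcrc1, a core protein of complex III, fell by 0.43 ± 0.08 (adjusted p = 0.0256). Ndufa9, of complex I, lay at -0.42 ± 0.10 (adjusted p = 0.0563), and Sdha, of complex II, at -0.04 (adjusted p = 0.869). The mean of the 26 genes ran from 10.6 to 10.8 in young and from 10.3 to 10.5 in aged. Cox4i1 lost its call without young ZT 21 repeat 2, aged ZT 18 repeat 1 or aged ZT 21 repeat 1 (adjusted p up to 0.0626), and Uqcrc1 without any 1 of the 8 arrays (up to 0.0893).

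Of 18 genes of glucose and glycogen metabolism Slc2a4 fell, by 0.41 ± 0.08 (adjusted p = 0.0321). It encodes GLUT4, the glucose transporter that insulin and contraction bring to the surface, and stood at 11.06 to 11.13 in young and 10.57 to 10.80 in aged. Of 18 genes of fatty acid metabolism 0 passed, among them Cpt2, a carnitine transferase of mitochondria, at -0.37 ± 0.08 (adjusted p = 0.0518). Pdk4, which holds back glucose oxidation, lay at 0.49 ± 0.15 (adjusted p = 0.128), with aged ZT 18 repeat 2 inside the young range. Slc2a4 lost its call without any 1 of the 8 arrays (adjusted p up to 0.0973). Over all genes 2.76% passed.

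In the circadian clock Dbp, a transcription factor of the PAR bZIP family and direct target of the clock activators, passed, and the other 17 of 18 clock genes did not. Over all genes 2.76% passed. Which clock genes pass depends on the fit: with the spread estimated from all 32 arrays Dbp did not pass (adjusted p = 0.0921), and Clock, Arntl and Rora did (0.0121, 0.0372 and 0.0327). Dbp stood at 9.63, 9.99, 9.31 and 9.38 in young and at 9.27, 9.44, 8.59 and 8.79 in aged, and fell by 0.56 ± 0.11 (adjusted p = 0.0317). At each time both aged arrays were below both young ones, and over both times the ages overlapped, since the level falls from ZT 18 to ZT 21 at either age. The call was lost without any array other than young ZT 18 repeat 1 (adjusted p up to 0.102), while the difference stayed between -0.65 and -0.50. The other members of that family had the same sign, with Tef at -0.26 ± 0.09 (adjusted p = 0.172) and Hlf at -0.18 ± 0.12 (0.469).

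The activators Clock and Arntl, and Rora, lay above 0 and short of the threshold in the fit of these 8 arrays. Clock stood at 9.99, 9.67, 10.07 and 10.04 in young and at 10.20, 10.23, 10.46 and 10.47 in aged, a difference of 0.40 ± 0.09 (adjusted p = 0.0501) with no overlap. Arntl, which encodes BMAL1, stood at 8.87, 9.02, 9.38 and 9.39 in young and at 9.41, 9.19, 9.72 and 9.87 in aged, a difference of 0.38 ± 0.09 (adjusted p = 0.0526). Rora, an activator of Arntl, lay at 0.34 ± 0.08 (adjusted p = 0.0616) and did not overlap between ages. All 3 passed with only genes at a mean level of at least 6 tested (adjusted p = 0.0148, 0.0154 and 0.0182 for Clock, Arntl and Rora) and with the trended and robust variance prior (0.0125, 0.0156 and 0.0138), as Clock did with array weights (0.0329) and Arntl with quantile normalisation repeated on these arrays (0.0399). None of the 3 passed in any of the 8 fits that left out 1 array (adjusted p from 0.0504 to 0.171). Among the repressors Per1 lay at 0.42 ± 0.18 (adjusted p = 0.272), Per2 at -0.18 ± 0.09 (0.332), Per3 at -0.16 ± 0.08 (0.313), Cry1 at 0.01 ± 0.09 (0.974) and Cry2 at 0.09 ± 0.08 (0.618). Nr1d1, which encodes the repressor REV-ERB alpha, differed more between repeats than between ages. Its aged ZT 21 arrays were at 10.42 and 9.08, and its difference was -0.02 ± 0.26. The remaining clock genes, Npas2, Nr1d2, Bhlhe40, Bhlhe41, Ciart and Nfil3, lay between -0.28 and 0.14. Of these Npas2, at 0.14, is also on the list of activators, and it passed in none of the alternative fits. Of 15 clock output genes of muscle Leo1, a subunit of the PAF1 complex, rose, by 0.48 ± 0.08 (adjusted p = 0.022), and lost its call without any 1 of the 8 arrays (up to 0.0703). Over all genes 1.69% rose. The list had a median of -0.04, with 9 of the 15 genes below 0.

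**Figure D3:**
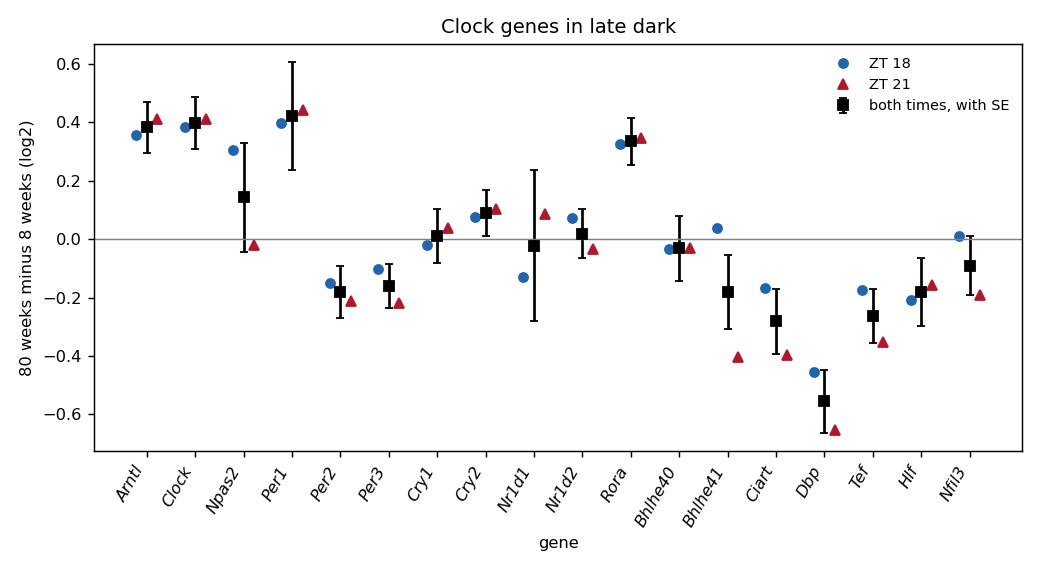
Age difference (80 weeks minus 8 weeks, log2) of the 18 clock genes: black squares with bars are the difference over both times with its SE, blue circles ZT 18 and red triangles ZT 21. Dbp, at -0.56, is the only gene past the threshold in the fit of these 8 arrays, and Clock, Arntl and Rora lie between 0.34 and 0.40.

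Some members passed in the lists of innervation, growth control and stress, against 2.76% of all genes. Over all 42 lists 41 of 488 measured genes passed, and the lists were chosen with earlier results of these data known. Of 20 genes of denervation and the neuromuscular junction Chrne, the adult subunit of the acetylcholine receptor, fell by 0.40 ± 0.09 (adjusted p = 0.0457), and Etv5, a transcription factor of the junction, fell by 0.69 ± 0.11 (adjusted p = 0.0173). Musk, the receptor kinase that organises the junction, lay at 0.51 ± 0.12 (adjusted p = 0.0507) and Dach2, a corepressor, at 0.43 ± 0.10 (0.0585). Chrng, the fetal receptor subunit, lay at -0.13 (adjusted p = 0.719), and Myog, which denervation induces, at -0.35 (0.376). Of 18 atrophy, ubiquitin and autophagy genes Fbxo30, a ubiquitin ligase also called MUSA1, rose by 0.47 ± 0.10 (adjusted p = 0.0472). Map1lc3a, an autophagosome protein, fell by 0.63 ± 0.08 (adjusted p = 0.00991), from 8.32 to 8.48 in young to 7.73 to 7.78 in aged, and kept its call without any single array. The ligases of atrophy Fbxo32 and Trim63 had values of 0.91 ± 0.26 and 0.41 ± 0.12 (adjusted p = 0.102 and 0.107).

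Of 11 p53 and senescence genes Eda2r and Trp53inp1 rose, where 1.69% of all genes rose. Eda2r, a receptor of the TNF family and p53 target, stood at 6.31 to 6.78 in young and 7.36 to 7.77 in aged and rose by 1.08 ± 0.14 (adjusted p = 0.0105), a call kept without any single array. Trp53inp1 rose by 0.60 ± 0.10 (adjusted p = 0.0195). Cdkn1a, which encodes p21, lay at 0.45 ± 0.20 (adjusted p = 0.289) and Cdkn2a at -0.04 (0.851). Single members also rose in the lists of chaperones (Chordc1, 0.43 ± 0.09, adjusted p = 0.0376), the unfolded protein response (Dnajb9, 0.55 ± 0.10, 0.0269) and antioxidant genes (Gpx3, 0.59 ± 0.12, 0.0393). Fos and Jun, immediate early genes, lay at 0.84 ± 0.20 and 0.50 ± 0.12 (adjusted p = 0.0571 and 0.0604), and Fos passed without young ZT 18 repeat 2 (0.0419). Calls of Chrne, Fbxo30 and Chordc1 were lost without any 1 of the 8 arrays. Those of Dnajb9 and Gpx3 were kept only without young ZT 18 repeat 2 and aged ZT 18 repeat 2 respectively, that of Etv5 was lost without either young ZT 21 repeat, aged ZT 18 repeat 2 or either aged ZT 21 repeat, and that of Trp53inp1 without young ZT 21 repeat 2, aged ZT 18 repeat 1 or either aged ZT 21 repeat.

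Of the excitation genes other than Kcnab1, Cacnb1 and Jph2 fell. Cacnb1, the beta subunit of the muscle calcium channel, was lower by 0.50 ± 0.09 (adjusted p = 0.0222), and Jph2, which holds the tubule and reticulum membranes together, fell by 0.40 ± 0.09 and stood right at the threshold. Of the 17 genes of that list 13 lay below 0, with a median of -0.13. Over all genes 48.6% lay above 0, and 1.69% rose and 1.07% fell. Of 6 imprinted RNAs of the Dlk1-Dio3 locus Meg3 and Rian, both maternally expressed long RNAs, fell, by 0.97 ± 0.20 and 0.97 ± 0.15 (adjusted p = 0.0371 and 0.0178). Rian stood at 6.43, 6.07, 6.84 and 6.65 in young and at 5.18, 4.94, 6.24 and 5.73 in aged, so that it overlapped between the ages across times but not within a time. AF357425, a small RNA gene, fell by 1.01 ± 0.14 (adjusted p = 0.0124), and lost its call only without aged ZT 18 repeat 1 (0.0531). Cacnb1 kept its call only without young ZT 18 repeat 2, Jph2 lost it without any 1 of the 8 arrays, Meg3 kept it only without young ZT 18 repeat 2, and Rian lost it without young ZT 21 repeat 1, either aged ZT 18 repeat or aged ZT 21 repeat 2.

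The remaining leading falls were Mettl21e, Smox, Klhdc3 and B230312C02Rik. Mettl21e, a methyltransferase gene of muscle, stood at 7.46, 6.62, 6.66 and 6.62 in young and at 5.59, 5.84, 5.22 and 5.40 in aged and fell by 1.33 ± 0.16 (adjusted p = 0.0102). Smox, spermine oxidase, stood at 11.14, 11.16, 11.27 and 11.14 in young and at 9.95, 10.58, 10.19 and 9.99 in aged and fell by 1.00 ± 0.14 (adjusted p = 0.0129). Klhdc3, a substrate adaptor of a ubiquitin ligase, fell by 1.00 ± 0.13 (adjusted p = 0.0105). These 3 calls were kept without any single array. B230312C02Rik, which neighbours the called host gene of Mir1a-1, fell by 1.05 ± 0.18 (adjusted p = 0.0213), and lost its call without young ZT 18 repeat 1, either young ZT 21 repeat, aged ZT 18 repeat 1 or either aged ZT 21 repeat (up to 0.072). Over the 24 leading genes, 14 (9 rises and 5 falls) kept their call without any 1 of the 8 arrays. That all 24 kept their direction was fixed in advance, since they were chosen without overlap between the ages. With the spread estimated from all 32 arrays of the study 20 of the 24 passed, without Ighj4, Chad, Fmod and Myl3, and in that fit Dbp, Atp2a2, Sln, Sparc, Col6a2, Rian, Ighm, Mss51, Chordc1, Gpx3, Mir30c-1, Mir692-1 and Loxl3 did not pass either. With the adipocyte mean as a covariate 17 of the 24 passed, with the hepatocyte mean 19 and with slow minus fast 5.

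**Figure D4:**
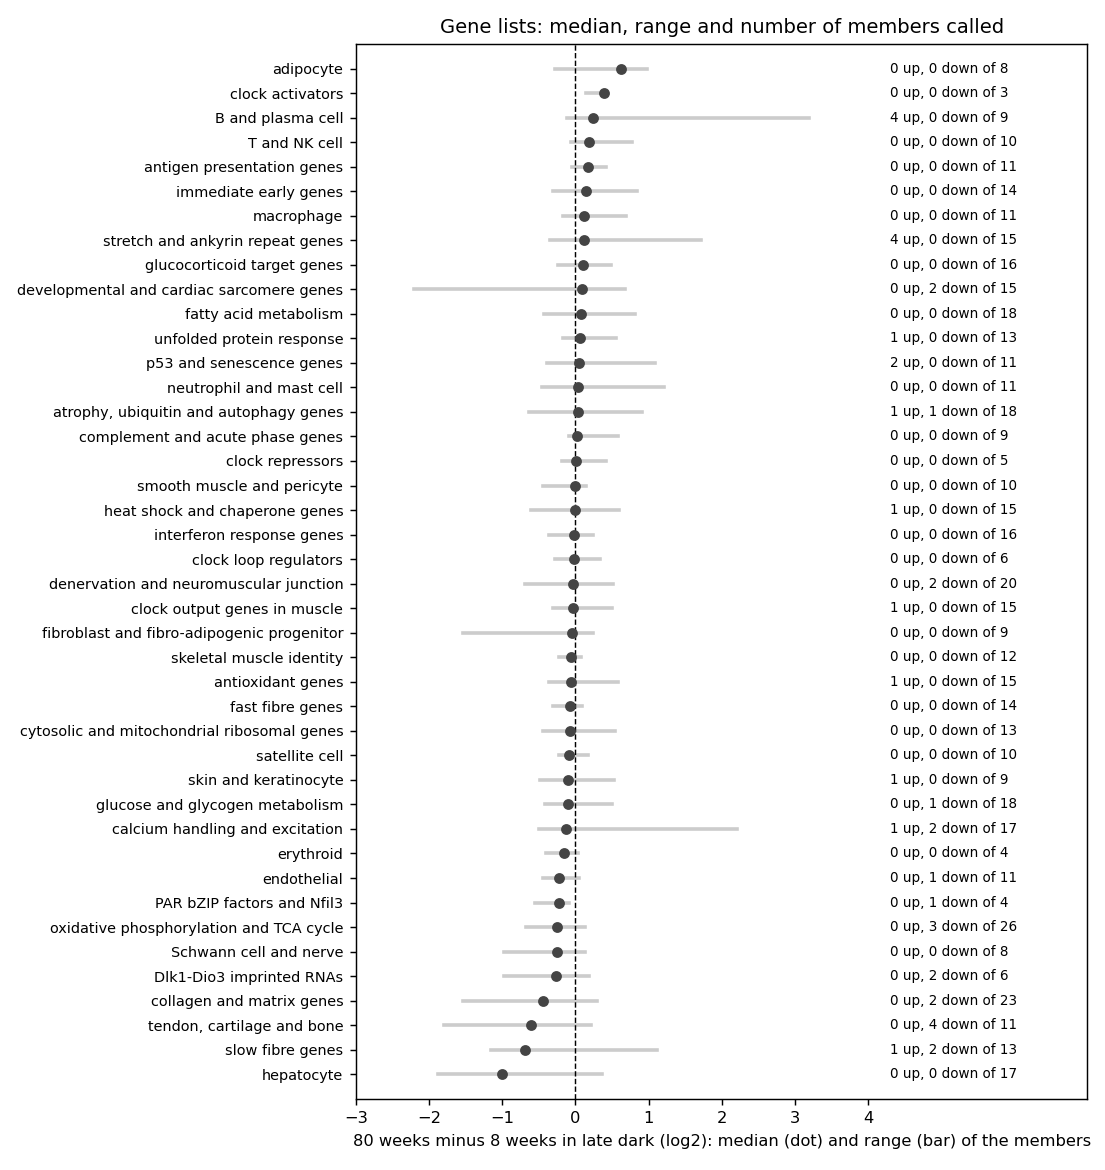
Median (dot) and range (grey bar) of the age difference in late dark for 42 gene lists, in log2, with the number of members that rose and fell past the threshold at the right. The dashed line is the median of all genes, -0.0054; the lists of hepatocyte, slow fibre and tendon genes have the lowest medians (-1.01, -0.68 and -0.60) and the adipocyte list the highest (0.63).

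In the lists of other cell types the genes that passed were Tie1 and Trp63. Over all genes 2.76% passed, and no shortfall or excess is read from these short lists. Of 11 endothelial genes Tie1, an endothelial receptor kinase, fell by 0.44 ± 0.09 (adjusted p = 0.0337). Of the 11, 10 lay below 0, while 48.6% of all genes lay above it. The endothelial list mean ran from 8.18 to 8.38 in young and 7.87 to 8.14 in aged. Tie1 lost its call without any 1 of the 8 arrays. The macrophage list (11 genes, median 0.12), the T and NK cell list (10 genes, 0.19), the neutrophil and mast cell list (11 genes, 0.04), the satellite cell list (10 genes, -0.08) and the Schwann cell list (8 genes, -0.26) had 0 calls. Cpa3, a mast cell protease, had a value of 1.21 ± 0.31 (adjusted p = 0.0734), and Pmp22, a myelin protein, of -0.97 ± 0.23 (0.0585). Cpa3 passed without young ZT 18 repeat 1 (0.032) and Pmp22 without young ZT 21 repeat 1 (0.0423). Of 9 skin genes Trp63 rose by 0.53 ± 0.10 (adjusted p = 0.031), a call kept only without young ZT 18 repeat 2 (up to 0.101).

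Among small RNA genes, 4 of 539 microRNA genes passed (0.742%), a smaller share than the 2.76% of all genes. The median young level of the microRNA genes was 4.39, while the median level of all genes on the 8 arrays was 6.05. The part of low levels in this share was not tested. The array reads the probe set of a hairpin gene, and which form of the RNA it catches is not given in the sources used here. One mature sequence per gene is printed, from RefSeq (GRCm38.p6), to show how the arms for which these RNAs are best known differ in seed. The other arms that RefSeq lists for Mirlet7f-1, Mirlet7a-1, Mir29a and Mir30c-1 are not printed. Capitals mark the seed (bases 2 to 8). The let-7a-5p sequence is added because its gene Mirlet7a-1 lies beside Mirlet7f-1 and shares its seed.
let-7f-5p: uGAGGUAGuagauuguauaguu
let-7a-5p: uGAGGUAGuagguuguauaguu
miR-29a-3p: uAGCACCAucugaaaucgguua
miR-30c-5p: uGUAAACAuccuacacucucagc
miR-692: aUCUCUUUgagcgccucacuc
The 5 sequences printed hold 4 different seeds. They lie on the minus strand at chr13:48537889-48537910 (let-7f-5p), chr13:48538239-48538260 (let-7a-5p), chr6:31062673-31062694 (miR-29a-3p), chr4:120769584-120769606 (miR-30c-5p) and chr17:6895259-6895279 (miR-692).

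Mirlet7f-1, of the let-7 family known from developmental timing, stood at 3.80, 3.29, 3.87 and 3.10 in young and at 4.73, 4.80, 4.98 and 5.16 in aged, and rose by 1.40 ± 0.18 (adjusted p = 0.0105). Mirlet7a-1, with the same seed, stood at 5.84 to 6.40 in young and 5.92 to 6.49 in aged and had a value of 0.06 ± 0.09 (adjusted p = 0.773). These genes, whose printed sequences share a seed, thus had unequal values, and the levels of Mirlet7f-1 are in the low range of the array. Mir29a, whose product targets collagen transcripts, stood at 2.59, 2.94, 2.90 and 2.68 in young and at 3.45, 3.47, 3.82 and 3.77 in aged and rose by 0.85 ± 0.11 (adjusted p = 0.0106), also at low levels. Mir30c-1 fell by 0.75 ± 0.15 (adjusted p = 0.0321) and Mir692-1 by 0.69 ± 0.15 (0.0461). The rises kept their call without any single array, and Mir30c-1 and Mir692-1 kept theirs only without aged ZT 21 repeat 1 (adjusted p up to 0.0892 and 0.131).

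No gene passed the test of an age difference that changes between the times. Tested at ZT 18 alone 3 genes passed (0.0129%) and at ZT 21 alone 8 (0.0344%). The difference between the times in the effect of age passed in 0 genes by limma (720 genes, 3.09%, at an unadjusted p under 0.05), but in 71 without young ZT 18 repeat 1 and in 1 without aged ZT 21 repeat 2. Smim23, Rpl19, Gm4907 and Olfr275 had the smallest p. Rpl19, a ribosomal protein gene, differed by 0.91 at ZT 18 and by -0.48 at ZT 21 (unadjusted p = 0.000199). Kcnab1 differed by 1.71 at ZT 18 and 2.70 at ZT 21, Igkc by 2.40 and 3.99, and Ankrd1 by 1.68 and 0.94.

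The same contrast was then taken in the other 24 arrays, at ZT 0 to 15, which share no array with late dark. There 1400 genes (6.01%) were higher and 932 (4%) lower at 80 weeks. Of the 393 genes higher in late dark 278 were also called higher there (70.7% of the late dark genes and 19.9% of the others), and of the 249 lower genes 156 were called lower (62.7% and 16.7%). By sign alone 385 of 393 and 243 of 249 lay the same way, and 0 were called in opposite directions. The median difference of the 393 was 0.31 there, against 0.53 in late dark, and that of the 249 was -0.27 against -0.51. The genes were chosen by their late dark values, so that the medians do not compare the sizes evenly. Most of the arrays with liver transcripts lie among these 24 and are young, and the hepatocyte list had a median of -0.62 there. Without them 556 genes were higher and 462 lower in these arrays, with ZT 6 left out as well. The part of liver RNA in the overlap was not tested.

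**Figure D5:**
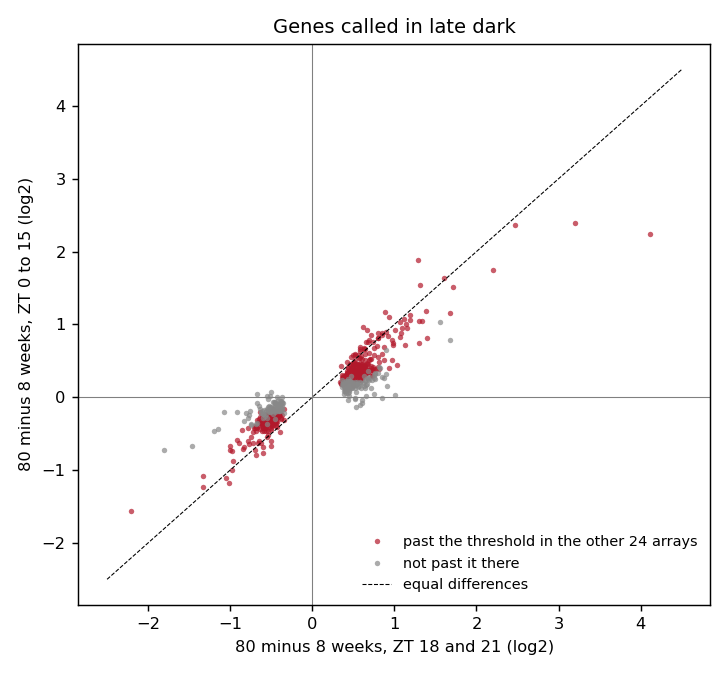
Age difference (80 weeks minus 8 weeks, log2) of the 642 genes called in late dark, at ZT 18 and 21 (horizontal) and in the other 24 arrays at ZT 0 to 15 (vertical). Red genes pass the threshold in both, grey genes in late dark alone, and most points lie nearer to 0 on the vertical axis than the dashed line of equal differences.

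Whether an age difference in late dark departs from that in the rest of the day was tested in 1 model of all 32 arrays. By limma 0 genes passed, with 1185 (5.09%) at an unadjusted p under 0.05. The count was 3 without aged ZT 18 repeat 2, 1 without aged ZT 21 repeat 1 and 1 without aged ZT 21 repeat 2. The smallest p belonged to Zdhhc8, Zfp273, 9430037G07Rik and Crispld2 (adjusted p = 0.902 each). Zfp273, a zinc finger gene, rose by 1.01 in late dark (adjusted p = 0.0222) and had a value of 0.03 in the other arrays, a difference of 0.98 ± 0.22 between the 2. Crispld2, a secreted protein gene induced by glucocorticoids, fell by 0.45 in late dark (adjusted p = 0.026) and had a value of -0.07 in the other arrays. Zfp273 lost its late dark call without young ZT 18 repeat 1, either young ZT 21 repeat, aged ZT 18 repeat 1 or aged ZT 21 repeat 2 (adjusted p up to 0.0752), and Crispld2, Zdhhc8 and 9430037G07Rik lost theirs without any 1 of the 8 arrays.

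Chad, Fmod, Tnmd, Thbs4 and Kera passed in late dark and not in the other 24 arrays. Tnmd had a value of -0.20 ± 0.16 in the other 24 arrays (adjusted p = 0.481), and its late dark difference departed from that by -0.87 ± 0.33 (unadjusted p = 0.0156, adjusted p = 0.902). For Thbs4 the value in the other arrays was -0.20 ± 0.15 and the departure -0.72 ± 0.29 (unadjusted p = 0.0224), for Kera -0.67 ± 0.23 and -0.80 ± 0.43 (0.0791), for Fmod -0.46 ± 0.30 and -0.74 ± 0.54 (0.184), and for Chad -0.73 ± 0.38 and -1.08 ± 0.74 (0.163). Myl3 likewise had a value of -0.44 ± 0.23 there (adjusted p = 0.242). These tendon genes were chosen by their late dark calls, which favours a departure, so the unadjusted p-values do not count as support. None of these departures passed over all genes, and the median of the tendon, cartilage and bone list was -0.16 in the other 24 arrays.

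In 14 called genes the sign in the other arrays was opposite. Choosing them by a late dark call and an opposite sign builds in a departure, so their unadjusted p-values do not count as support. Dbp had a value of 0.02 ± 0.10 in the other arrays (adjusted p = 0.95) and departed from it in late dark by -0.57 ± 0.21 (unadjusted p = 0.0116, adjusted p = 0.902). Mir29a had a value of -0.01 ± 0.14 and departed by 0.86 ± 0.24 (unadjusted p = 0.00186, adjusted p = 0.902). Loxl3, a lysyl oxidase-like enzyme of matrix, fell by 0.51 in late dark (adjusted p = 0.0165) and had a value of 0.08 there; its call was lost without young ZT 21 repeat 2, aged ZT 18 repeat 1 or aged ZT 21 repeat 2 (up to 0.057). Per2, which was not called in late dark, had -0.18 in late dark and 0.24 (adjusted p = 0.025) in the other arrays, a departure of -0.42 ± 0.12 (unadjusted p = 0.0023, adjusted p = 0.902). By contrast Actc1 (-1.56), Kcnab1 (1.75), Ankrd1 (1.54), Ighg2c (2.36) and Nrep (-1.08) passed in the other arrays as well, with the sign of late dark.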

How the data were processed

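The authors deposited a table of log2 levels for 24479 probe sets and 32 arrays, made with R 3.2.2 and affy 1.44.1 by RMA, per the submitters' processing notes. As a method RMA corrects background, equalises array distributions and sums up probes, and it shrinks the differences of weak genes. The genome build is not given in the sources used here. The values ran from 1.70 to 13.7. A single symbol was held by 23281 probe sets, none by 1198, and 23279 genes were kept. With arrays the precision is set by their number, not by a depth of reads.

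Age was tested in R 4.3.3 with limma 3.58.1 on the 8 arrays, with ZT as a covariate, Benjamini-Hochberg adjustment over all genes and a threshold of 0.05. The pools are of separate mice, so p-values measure the spread between pools. The difference between ZT 18 and ZT 21 came from a model of 4 groups, that between late dark and the rest of the day from a model of 16 groups. The labels say that sampling ran over successive days, but not that a repeat number marks a day. Same-numbered arrays correlated by -0.0688 to 0.0939 and were not paired. The fits were tested on simulated data. Named were the 12 largest rises and falls among called genes without overlap and with a level of at least 6 at the higher age, all clock genes, up to 4 genes of smallest p per list and of each other test, and any list member called against the rest; further genes named, the microRNAs among them, were chosen after their values were seen. The comparison and the 42 gene lists were chosen with earlier results of these data known. Alternatives covered the arrays fitted, normalisation, level filter, variance prior, array weights, cell-mix covariates, threshold and leaving out arrays.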

Additional observations from a re-analysis of the deposited data

Results flagged for a closer look

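In 14 of 290 groups of 4 arrays (1 gene at 1 age each) a single array stood far from the other 3, where chance alone does so in about 1 group in 20. Young ZT 18 repeat 1 was apart for Mettl21e (7.46, others 6.62 to 6.66), Ighm (9.92, others 9.18 to 9.27), Cd79b (6.14, others 5.52 to 5.62), Ms4a1 (4.66, others 4.06 to 4.11) and Mir692-1 (8.80). Of these Ighm, Cd79b and Ms4a1 are markers of B cells, and this was the highest young array for each. Young ZT 18 repeat 2, the array with liver transcripts, was apart for Myl3 (7.53, others 8.32 to 8.44). Young ZT 21 repeat 1 was apart for Smox (11.3) and Chordc1 (9.17), and young ZT 21 repeat 2 for Trp53inp1 (6.98), Casq1 (13.1) and Acaa2 (9.49). Among the aged arrays ZT 18 repeat 1 was apart for Ighj4 (7.33, others 8.07 to 8.14), and ZT 21 repeat 1 for Hlf (6.72) and Sparc (10.7, others 9.95 to 10.04).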

How the results depend on the processing

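All 642 called genes kept their direction under every alternative that tested them (594 of 594 under the level filter), while the number of calls varied. For genes without overlap between the ages, leaving out an array or fitting 1 time alone could not turn the sign. A changed variance prior, replicate block or level filter leaves the difference itself unchanged. The main counts are 393 higher and 249 lower. The counts were 896 and 764 with only genes at a mean level of at least 6, 770 and 591 with a trended and robust variance prior, 833 and 654 at an adjusted p under 0.1, and 159 and 79 with at least 1.5-fold in addition to the main threshold. They were 84 and 40 with the adipocyte mean as a covariate, 77 and 44 with the hepatocyte mean, 9 and 3 with slow minus fast, 180 and 102 without the array with liver transcripts, 3 and 0 at ZT 18 alone and 7 and 1 at ZT 21 alone. Leaving out 1 array in turn gave 57 to 180 higher and 23 to 102 lower genes, 0 to 71 genes whose age effect differed between the times, and 0 to 3 that differed from the rest of the day. In the other 24 arrays the counts of 1400 and 932 became 556 and 462 without arrays with liver transcripts, which also leaves out ZT 6. The cause of these shifts was not tested, but fewer arrays, fewer genes and added covariates change the degrees of freedom and the adjustment by construction. With the replicate block the counts were 315 and 218, 0 and 0 for both tests of difference and 1467 and 1020 in the other arrays; of the genes named it ended the calls of Chordc1, Gpx3, Fbxo30, Chrne, Mss51, Sln, Jph2 and Mir692-1. Conversely 29 genes examined that were not called passed under at least 1 alternative, most often the level filter and the trended and robust prior. Signs turned only in genes that were not called, most of them near 0. With slow minus fast Npas2 was at -0.20, Nr1d2 at -0.096, Gm4907 at -0.23, Sdha at 0.052, Mkx at 0.17 and Csrp3 at 0.034. With the adipocyte mean Cry1 was at -0.014, Nr1d1 at 0.058, Cdkn2a at 0.0013 and Scx at -0.052. With the hepatocyte mean Nr1d1 was at 0.148, Bhlhe40 at 0.016, Rpl19 at -0.070, Gm4907 at -0.028, Scx at -0.11 and Cd79a at -0.036. With array weights Cry1 was at -0.013. Without the liver array Nr1d1 was at 0.073 and Scx at -0.075. At ZT 18 alone Cry1 was at -0.019, Bhlhe41 at 0.038, Nfil3 at 0.011, Smim23 at 0.56, Olfr275 at -0.58, Cd79b at -0.18 and Ms4a1 at -0.29. At ZT 21 alone Npas2 was at -0.018, Nr1d1 at 0.087, Nr1d2 at -0.034, Rpl19 at -0.48, Gm4907 at -0.57, Cdkn2a at 0.025 and Mkx at 0.011. Leaving out 1 array gave ranges of -0.0045 to 0.36 for Npas2, -0.043 to 0.051 for Cry1, -0.31 to 0.22 for Nr1d1, -0.026 to 0.048 for Nr1d2, -0.11 to 0.048 for Bhlhe40, -0.0080 to 0.32 for Cd79b, -0.086 to 0.0073 for Cdkn2a, -0.25 to 0.028 for Chrng, -0.12 to 0.26 for Gm4907, -0.15 to 0.053 for Mkx, -0.11 to 0.22 for Olfr275, -0.075 to 0.11 for Scx, -0.085 to 0.0060 for Sdha and -0.21 to 0.091 for Smim23.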

Other observations

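Genes of the X chromosome were called higher more often than lower in late dark. Of 942 X-linked genes 28 were higher (2.97%) and 4 lower (0.425%), against 1.69% and 1.07% of all genes. The median X-linked difference was 0.02 in late dark and -0.02 in the other 24 arrays, against -0.0054 and -0.0070 over all genes. Hprt, which encodes an enzyme of purine salvage often used as a reference gene, stood at 8.55, 8.77, 8.47 and 8.59 in young and at 9.59, 9.50, 9.57 and 9.62 in aged. It rose by 0.98 ± 0.09 (limma adjusted p = 0.00404), and its neighbour Phf6 was called higher too. In the other 24 arrays Hprt had a value of 0.51 (adjusted p = 0.00271).

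The genes called higher were longer. Their median span in RefSeq was 33.6 kb, against 12.9 kb for the genes called lower and 15.6 kb for all genes. The sets were not matched for level or gene type. The median level was 8.10 in the higher and 8.21 in the lower genes, against 6.05 over all. Protein-coding genes made up 364 of the 393 higher and 234 of the 249 lower genes, and 19526 of all 23279. Some called genes lie side by side. Amy1, an amylase gene, and Rnpc3, of the minor spliceosome, are neighbours and rose by 1.20 ± 0.15 and 0.98 ± 0.10 (limma adjusted p = 0.0102 and 0.00687), and both kept their call without any single array.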
